A study of Mus musculus with 21 samples.

Results

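Ear1, Ear2, Epx, Prg2, Cpa3, Ms4a2, Fcer1a, Mcpt8, Prss34 and Hdc are genes of eosinophils, basophils and mast cells. They were chosen by name, and all 10 were present among the 30733 genes of a count table that covers 21 RNA libraries of mouse bone marrow. The libraries came from animals whose Stag2 gene, which encodes a subunit of the cohesin ring, was knocked out (KO) or wild type (WT). In the labels the genotypes are Stag2KO and Stag2WT, and the sorted populations are LSK (stem and multipotent progenitor cells; KO n = 3, WT n = 4), GMP (granulocyte and monocyte progenitors; KO n = 4, WT n = 3) and CFU-E (erythroid progenitors; KO n = 4, WT n = 3). All marrow was first depleted of cells with lineage markers. The sources used here do not give how the knockout was made, or the strain, sex and age of the animals. Replicates are numbered, but no label says that they were separate animals, so a p-value here measures only library-to-library spread, some of which may be technical. In sorted bulk samples, fewer cells of a type and less RNA per cell cannot be told apart.

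Eosinophils, basophils and mast cells are rare granulocytes that arise from myeloid progenitors, and each stores proteins and amines in granules that are released during allergic and anti-parasite responses. Eosinophil granules hold a major basic protein, a peroxidase and small ribonucleases. Basophils and mast cells carry the high-affinity receptor for IgE and make histamine and serine proteases. Because some of these granule genes are transcribed early, their RNA marks progenitors that have begun to take one of these fates as well as more mature cells. The 10 genes are described below by role, from eosinophil granule proteins to the proteases, the IgE receptor and histamine synthesis.

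LSK libraries held 22813333 to 32196233 counts each, CFU-E libraries 3654667 to 5550165 and GMP libraries 1250683 to 4401993. Every GMP KO library (at most 3471881 counts) was shallower than every GMP WT library (at least 3732769), and KO 1 was the shallowest. Levels are given as CPM, the share of a library's counts scaled by TMM size factors. LSK libraries were made with another kit than GMP and CFU-E libraries, so LSK levels were not set against the others. The targeted gene, Stag2, separated the genotypes in LSK (KO 67.8 to 79.9 CPM, WT 148 to 187 CPM) and in CFU-E (KO 41.3 to 75.8 CPM, WT 125.1 to 159.9 CPM). In GMP its KO libraries lay between 80.9 and 150.2 CPM and its WT libraries between 98.3 and 200.4 CPM. These ranges overlapped and the difference was not called (edgeR adjusted p = 0.36), so Stag2 does not separate the libraries labelled GMP KO from those labelled GMP WT. In CFU-E, the erythroid transcription factor gene Klf1 was at 572.3 to 754.5 CPM, against at most 9.19 in GMP. The GMP marker Mpo was at 9339.6 to 26526.3 CPM in GMP, against at most 75.6 in CFU-E. GMP libraries also held RNA of maturing neutrophils. The summed level of 10 neutrophil genes was 74627.9 to 122020.2 CPM in GMP KO and 156096.8 to 206939 CPM in GMP WT.

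Ear1 and Ear2, the eosinophil-associated ribonucleases of the list, are near-copies of each other. Their promoters are shown because the likeness extends to them, while the transcripts compared further below bear on the reads. RefSeq (GRCm38.p6, another build than the mm9 of the counts) places the 250 bases before the Ear1 start at chr14:43819640-43819889 on the minus strand and those before the Ear2 start at chr14:44102404-44102653 on the plus strand. In an alignment of the pair, 246 bases were identical (97.6%), 2 were substituted and 4 were unpaired. Capitals mark the bases without an identical partner.
Ear1: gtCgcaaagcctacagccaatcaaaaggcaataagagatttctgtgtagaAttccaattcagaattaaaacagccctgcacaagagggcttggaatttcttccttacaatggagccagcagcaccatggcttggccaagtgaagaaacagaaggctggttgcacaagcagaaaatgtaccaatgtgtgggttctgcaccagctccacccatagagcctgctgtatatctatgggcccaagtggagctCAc
Ear2: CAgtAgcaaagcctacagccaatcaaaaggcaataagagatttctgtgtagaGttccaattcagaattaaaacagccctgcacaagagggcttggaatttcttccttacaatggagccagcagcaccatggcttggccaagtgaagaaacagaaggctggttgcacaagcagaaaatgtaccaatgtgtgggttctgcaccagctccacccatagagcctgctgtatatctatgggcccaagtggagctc
Over their longest coding transcripts, of 713 and 719 bases, 96.0% of positions were identical. Of all windows of 50 bases, 28.6% in Ear1 and 37.6% in Ear2 also occurred unchanged in a transcript of another gene among the listed and Ear genes. In the last 200 bases, which 3′ libraries report, the share was 34.4% for both. Reads of Ear1 and Ear2 can therefore be split wrongly or dropped by the counting, and the values of each gene are uncertain. The other 8 genes shared no window of 50 bases with those transcripts.

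Ear1 rose in the GMP libraries labelled KO, and it was the 1 gene of the 10 whose difference passed the test. In GMP WT 1, 2 and 3 it was at 15.7, 8.62 and 29.4 CPM, and in GMP KO 1 to 4 at 33.4, 66.1, 59.3 and 54.1 CPM. Every KO library lay above every WT library, with the smallest gap between KO 1 and WT 3. The means were 53.2 ± 14.1 CPM (SD, n = 4) and 17.9 ± 10.6 CPM (SD, n = 3). This is a log2 fold change of 1.58 ± 0.349 (SE, edgeR quasi-likelihood adjusted p = 0.0379). The call ended without WT 1, WT 2, KO 2 or KO 3 (adjusted p = 0.0817, 0.23, 0.0673 and 0.0688) and after thinning all libraries to the shallowest (log2 fold change 1.22, adjusted p = 0.276). The neutrophil sum was lower in every KO than in every WT library of the same comparison, as was the depth, and the part of either in this result was not tested.

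Ear2 had a like pattern with more overlap. It was at 7.96, 5.75 and 19.6 CPM in GMP WT 1, 2 and 3 and at 10.4, 37.4, 19.2 and 34.5 CPM in KO 1 to 4. WT 3 lay above KO 1 and KO 3. Its log2 fold change was 1.23 ± 0.434, with an unadjusted p of 0.0121 and an edgeR adjusted p of 0.17, past the threshold only with no filter on low counts (adjusted p = 0.00647). A wrong split of reads between the pair does not change their sum, but reads dropped or counted for another Ear gene would. Ear1 plus Ear2 came to 23.7, 14.4 and 49 CPM in WT and to 43.8, 103.5, 78.5 and 88.6 CPM in KO, so KO 1 lay below WT 3. Of the counts of both genes, Ear1 took 60 to 66.3% in the GMP WT libraries and 61.1 to 76.3% in KO.

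Ear1 was near the limit of detection in LSK and Ear2 was low there, and both were near that limit in CFU-E. Ear1 had counts of 0, 2, 0 and 6 in LSK WT 1 to 4 and of 4, 0 and 0 in LSK KO 1 to 3. Ear2 was at 0.163, 2.08, 1.08 and 3.03 CPM in LSK WT and at 0.386, 0.913 and 1.43 CPM in LSK KO. These ranges overlapped (log2 fold change -0.80 ± 0.801, edgeR adjusted p = 0.886). In CFU-E, Ear1 had 1 count over the 3 WT libraries and 2 over the 4 KO libraries, and Ear2 had 1 and 1.

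Prg2, which encodes the major basic protein of the eosinophil granule, and Epx, the eosinophil peroxidase, moved in step from library to library. Prg2 was at 1416.5, 1002 and 3472.2 CPM in GMP WT 1, 2 and 3 and at 1467.1, 3211.2, 2786.4 and 2073.1 CPM in KO 1 to 4. Epx was at 40.7, 27.6 and 100.1 CPM in WT and at 50.5, 95.9, 81.7 and 58.9 CPM in KO. For both genes WT 3 was the highest of the 7 libraries and WT 2 the lowest, so the KO range lay inside the WT range. Their log2 fold changes were 0.28 ± 0.366 for Prg2 (edgeR adjusted p = 0.699) and 0.36 ± 0.359 for Epx (adjusted p = 0.598). Without WT 3 they were 0.97 and 1.07 (adjusted p = 0.313 and 0.238), and without WT 2 they were -0.04 and 0.03 (adjusted p = 0.974 and 0.978).

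The share of Epx in the counts of Epx plus Prg2 was steadier than either level. It was 2.8, 2.68 and 2.8% in GMP WT 1, 2 and 3 and 3.33, 2.9, 2.85 and 2.76% in KO 1 to 4, while Prg2 itself varied between 1002 and 3472.2 CPM. The KO and WT means, 2.96 ± 0.253% (SD, n = 4) and 2.76 ± 0.0693% (SD, n = 3), had an exact two-sided permutation p of 0.171 (adjusted p = 0.327 over 8 such tests). With 4 libraries against 3 this test cannot go below 0.0571, so it shows neither a difference nor its absence. In LSK the same share was 10.3, 0.538, 6.11 and 5.58% in WT 1 to 4 and 3.01, 2.24 and 1.45% in KO 1 to 3. LSK WT 1 and WT 2 were thus at opposite ends, and WT 2 rests on 2 Epx counts. The groups overlapped (exact permutation p = 0.229, adjusted p = 0.327).

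In LSK the eosinophil pair was low in some WT libraries and high in others. Prg2 was at 28.4, 15.4, 136.2 and 102.5 CPM in LSK WT 1 to 4 and at 28.7, 63.1 and 16.6 CPM in KO 1 to 3. Epx was at 3.26, 0.0834, 8.86 and 6.06 CPM in WT and at 0.89, 1.45 and 0.244 CPM in KO. WT 3 and WT 4 were the highest for both, and WT 2 the lowest. The log2 fold changes were -0.97 ± 0.74 for Prg2 (edgeR adjusted p = 0.863) and -2.41 ± 1.08 for Epx (adjusted p = 0.644). The neutrophil sum was 387.2, 8792.4, 1509.4 and 4665.5 CPM in WT 1 to 4, and the promyelocyte sum 10532.9, 10734.3, 18116.3 and 16406 CPM. Their part in these values was not tested.

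**Figure D1:**
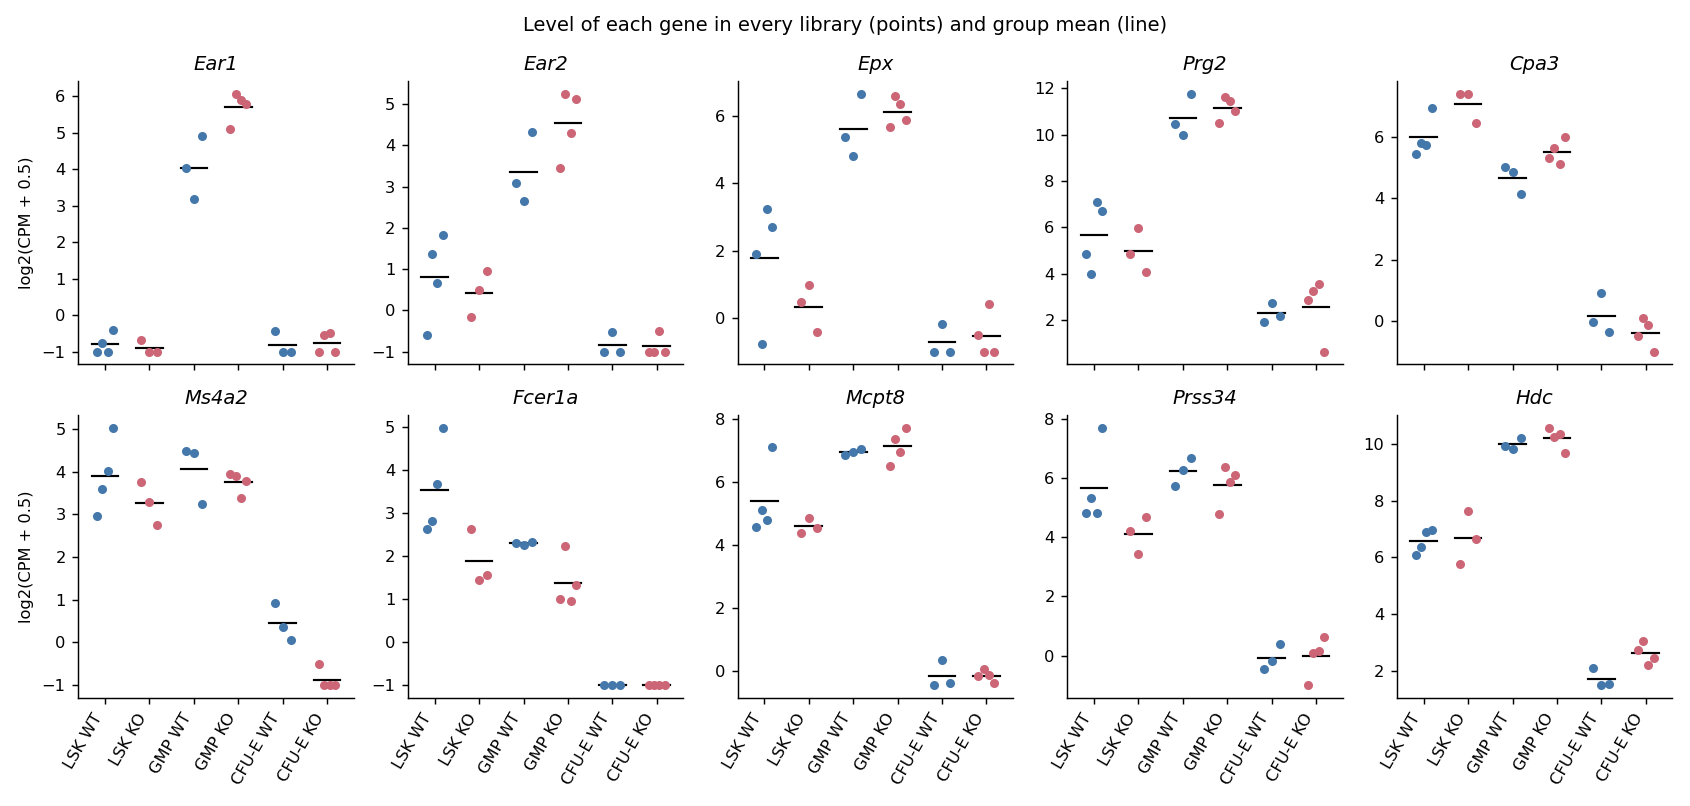
Level of each of the 10 genes as log2 of CPM plus 0.5 (vertical axis) in LSK, GMP and CFU-E libraries, with WT in blue and KO in red; each point is 1 library and each line a group mean. GMP KO libraries all lie above GMP WT libraries for Ear1 (33.4 to 66.1 against 8.62 to 29.4 CPM), whereas for Prg2 the KO range lies inside the WT range.

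Cpa3 encodes the carboxypeptidase of mast cell granules, also made by basophil and mast cell progenitors. It was at 31.6, 28.2 and 17 CPM in GMP WT 1, 2 and 3 and at 39.4, 49.5, 34 and 63.3 CPM in KO 1 to 4. All KO libraries lay above all WT libraries, KO 3 by little. The log2 fold change of 0.87 ± 0.281 had an unadjusted p of 0.00712 and did not pass the threshold over all genes (edgeR adjusted p = 0.139). In LSK, Cpa3 was at 42.7, 55.4, 52.9 and 123.3 CPM in WT 1 to 4 and at 167.9, 168.1 and 86.8 CPM in KO 1 to 3. KO 3 lay below WT 4 and above the other WT libraries. The log2 fold change was 1.04 ± 0.379 (adjusted p = 0.52) with all libraries and 1.48 ± 0.262 (adjusted p = 0.237) without WT 4.

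Mcpt8 and Prss34 encode serine proteases of basophils, the former the main marker protease of mouse basophils. Mcpt8 was at 115.9, 124.7 and 131.1 CPM in GMP WT 1, 2 and 3 and at 89.9, 165.1, 123.3 and 212.1 CPM in KO 1 to 4. The WT libraries lay close together and the KO libraries on both sides of them (log2 fold change 0.26 ± 0.262, edgeR adjusted p = 0.61). Prss34 was at 52.9, 76.4 and 102 CPM in WT and at 26.8, 83.2, 57.3 and 68.3 CPM in KO. Its groups overlapped too (log2 fold change -0.37 ± 0.313, adjusted p = 0.538).

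In LSK the size of the difference depended on a single WT library for both proteases. Mcpt8 was at 23.3, 34.3, 27.1 and 137 CPM in LSK WT 1 to 4 and at 20.5, 28.8 and 23.1 CPM in KO 1 to 3. Prss34 was at 27.6, 39.4, 27.8 and 208.1 CPM in WT and at 18, 10.2 and 25.2 CPM in KO. Prss34 was lower in every KO than in every WT library, whereas Mcpt8 overlapped. The log2 fold changes were -1.20 ± 0.603 for Mcpt8 (edgeR adjusted p = 0.715) and -2.09 ± 0.777 for Prss34 (unadjusted p = 0.0256, adjusted p = 0.526). Without LSK WT 4 they were -0.23 ± 0.204 and -0.83 ± 0.322, neither called (adjusted p = 1 and 0.818). The summed level of Cpa3, Ms4a2, Fcer1a, Mcpt8 and Prss34 was 531.7 CPM in WT 4, against 106.7 to 147.2 CPM in the other WT libraries and 143.8 to 225.1 CPM in KO.

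Ms4a2 and Fcer1a encode the beta and alpha subunits of the high-affinity IgE receptor. The alpha subunit binds IgE and the beta subunit amplifies the signal. Their promoters are shown because both hold GATAA, the core bound by GATA factors, and with Cpa3 they are genes of the mast cell and basophil program. RefSeq promoter entries (GRCm38.p6) place the 250 bases before the Ms4a2 start at chr19:11623720-11623969. Those before the Fcer1a start are at chr1:173227230-173227479 and those before the Cpa3 start at chr3:20242182-20242431, all on the minus strand. The RefSeq gene records begin further upstream, at 11623790 for Ms4a2, 173227232 for Fcer1a and 20242209 for Cpa3. The last bases of each window therefore lie inside the gene record. GATAA, on either strand, is in capitals.
Ms4a2: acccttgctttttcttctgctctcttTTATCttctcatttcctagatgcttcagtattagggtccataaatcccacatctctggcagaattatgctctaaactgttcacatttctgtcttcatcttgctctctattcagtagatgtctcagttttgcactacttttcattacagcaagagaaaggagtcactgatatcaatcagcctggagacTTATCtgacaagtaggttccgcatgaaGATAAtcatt
Fcer1a: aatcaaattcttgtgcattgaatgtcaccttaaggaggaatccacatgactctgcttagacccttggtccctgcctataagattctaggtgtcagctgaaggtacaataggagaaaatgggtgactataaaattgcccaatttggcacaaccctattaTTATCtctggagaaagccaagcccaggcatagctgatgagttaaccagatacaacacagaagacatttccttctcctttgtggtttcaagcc
Cpa3: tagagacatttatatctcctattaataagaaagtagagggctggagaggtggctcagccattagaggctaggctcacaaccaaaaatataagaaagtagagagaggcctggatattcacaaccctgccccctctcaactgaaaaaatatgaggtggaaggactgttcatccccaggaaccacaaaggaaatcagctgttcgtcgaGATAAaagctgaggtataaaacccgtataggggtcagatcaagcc
The Ms4a2 window held 3 matches, and the Fcer1a and Cpa3 windows 1 each. All Ms4a2 matches but the first lie in the part inside the gene record. Among the 9 listed genes with an entry, GATAA was present in 4, the fourth being Prss34, and it was present in 22.6% of all 32851 promoter windows of this length. GAGGAA, a purine-rich core bound by ETS factors, was in 2 of the 9 and in 23.3% of all windows, and TTNCNNAA, a loose C/EBP pattern, in 3 of the 9 and in 36.8% of all windows. The Hdc window (chr2:126618679-126618928) and the Mcpt8 window (chr14:56085198-56085447) lie wholly inside gene records that reach 126624025 and 56085499. Mcpt8 is among the 2 with GAGGAA. The counts over the 9 genes are therefore not all counts of bases upstream of the gene record. All 3 patterns were searched on both strands, and matches of different patterns may share bases. A match describes these letters only.

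Fcer1a was scarce in GMP, with counts of 19, 15 and 17 in WT 1, 2 and 3 and of 2, 15, 5 and 6 in KO 1 to 4. In CPM the WT libraries were between 4.31 and 4.5 and the KO libraries between 1.45 and 4.22, so the groups were separate, KO 2 by little. Its log2 fold change was -0.86 ± 0.464 (edgeR adjusted p = 0.332). Ms4a2 was at 21.8, 21 and 9.01 CPM in GMP WT and at 14.9, 14.3, 9.89 and 13.2 CPM in KO. WT 3 was the lowest library of all, and the log2 fold change was -0.42 ± 0.322 (adjusted p = 0.498).

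In LSK, Fcer1a was at 5.74, 6.59, 12.3 and 31.2 CPM in WT 1 to 4 and at 5.73, 2.21 and 2.47 CPM in KO 1 to 3. The groups did not overlap, but KO 1 was at practically the level of WT 1. It had a log2 fold change of -2.001 ± 0.651 (unadjusted p = 0.0137, edgeR adjusted p = 0.445), and without WT 4 it was -1.24 ± 0.456 (adjusted p = 0.771). Ms4a2 was at 7.3, 11.6, 15.6 and 32.1 CPM in WT and at 13, 9.21 and 6.24 CPM in KO, with overlap (log2 fold change -0.81 ± 0.48, adjusted p = 0.795).

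The share of Fcer1a in the counts of both receptor subunits separated the LSK genotypes. It was 44, 36.3, 44.1 and 49.3% in WT 1 to 4 and 30.6, 19.3 and 28.4% in KO 1 to 3. Every KO library lay below every WT library, and unlike either level, the share did not put WT 4 far from the other WT libraries. The means were 26.1 ± 5.99% in KO (SD, n = 3) and 43.4 ± 5.36% in WT (SD, n = 4), a difference of -17.3 percentage points. The exact two-sided permutation p was 0.0571, the smallest that 3 libraries against 4 allow, and it did not pass after adjustment over 8 tests (adjusted p = 0.327). In GMP the share was 17, 17 and 33.3% in WT and 9.09, 22.7, 12.8 and 13.3% in KO, with overlap (exact permutation p = 0.286). The share of Mcpt8 in Mcpt8 plus Prss34 ran from 47.8 to 73.8% in LSK KO and from 39.7 to 49.4% in LSK WT, with overlap (exact permutation p = 0.114, adjusted p = 0.327). These pairs were chosen after the values were seen.

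**Figure D2:**
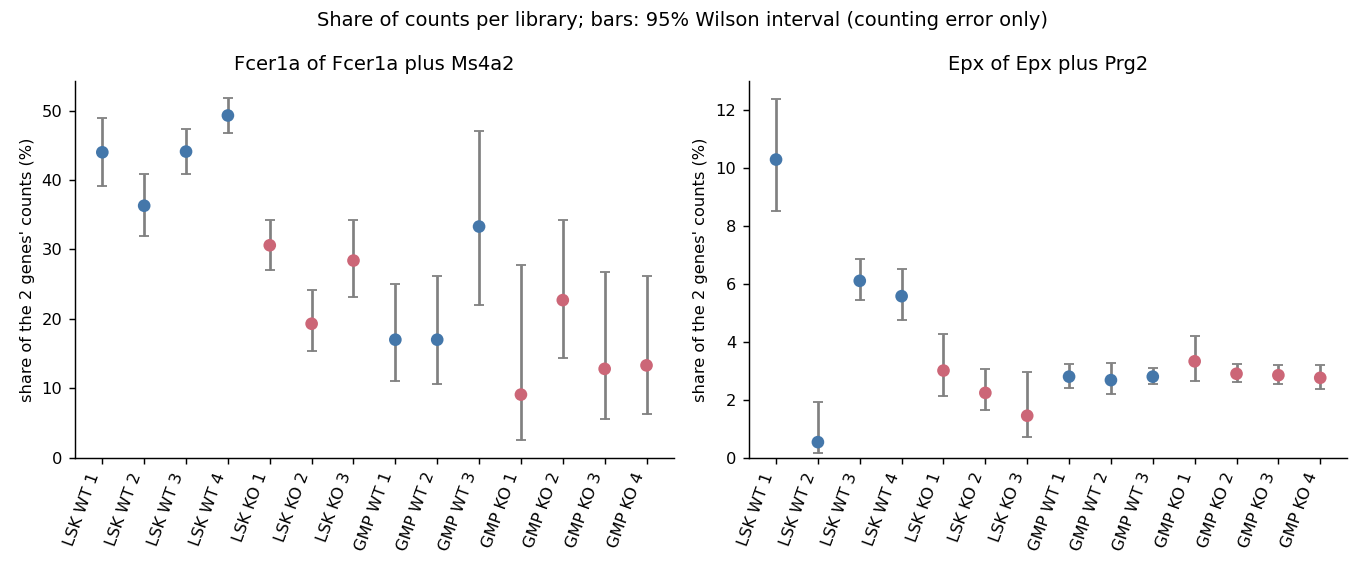
Share of counts (percent, vertical axis) that Fcer1a takes of Fcer1a plus Ms4a2 (left) and Epx of Epx plus Prg2 (right) in each LSK and GMP library, WT in blue and KO in red; bars are 95% Wilson intervals and cover counting error only. On the left the 3 LSK KO libraries (19.3 to 30.6%) lie below the 4 LSK WT libraries (36.3 to 49.3%), and on the right the 7 GMP libraries lie between 2.68 and 3.33%.

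Hdc encodes histidine decarboxylase, the enzyme that makes histamine. In GMP it was at 978.8, 905.7 and 1172.2 CPM in WT 1, 2 and 3, and the KO libraries ran from 818.9 to 1515.4 CPM. Both the lowest and the highest library were KO (log2 fold change 0.24 ± 0.24, edgeR adjusted p = 0.606). In LSK it was at 66.8, 81.8, 118.9 and 124.9 CPM in WT 1 to 4 and at 54.3, 195.9 and 99.2 CPM in KO 1 to 3, again with KO at both ends (log2 fold change 0.25 ± 0.395, adjusted p = 0.91). In CFU-E it was at 3.77, 2.33 and 2.43 CPM in WT 1, 2 and 3 and at 6.12, 7.85, 4.13 and 5.05 CPM in KO 1 to 4. Every CFU-E KO library lay above every WT library. The log2 fold change of 1.11 ± 0.432 had an unadjusted p of 0.0232 and did not pass over all genes (adjusted p = 0.371). CFU-E libraries were spread over a first flow cell (KO 1, WT 1 and WT 2) and a second (the others). The Hdc value was 0.999 within the first flow cell alone and 1.22 within the second, fits that rest on 1 KO and on 1 WT library. Of the 10 neutrophil genes, 7 were tested in CFU-E and all had positive fold changes, none called, and their summed level was 305.2 to 832.2 CPM in KO and 288.9 to 570.5 CPM in WT. Their part in the Hdc values was not tested.

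The remaining listed genes were close to absent in CFU-E. Only Prg2 and Hdc passed the filter on low counts there. Prg2 was at 3.3, 6.23 and 4.06 CPM in WT and at 6.73, 8.97, 11.1 and 1.06 CPM in KO, with KO 4 the lowest of the 7 (log2 fold change 0.65 ± 0.595, edgeR adjusted p = 0.804). Ms4a2 had 6, 4 and 2 counts in CFU-E WT 1, 2 and 3 and 1, 0, 0 and 0 counts in KO 1 to 4. Pooled over libraries, its KO level was 0.0578 times that of WT, with a 95% exact interval from 0.00135 to 0.391 that covers counting error only. Fitted with no filter on low counts, it had a log2 fold change of -3.04 ± 1.62 that depends on the prior count (edgeR adjusted p = 0.708). Fcer1a had no count in any of the 7 CFU-E libraries, and the other 6 genes had between 1 and 10 counts in each genotype.

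Over the list, the counts of calls were small in each KO comparison. In GMP all 10 genes were tested and 1 (Ear1) was called, against 1.45% of the 9969 genes tested, of which 0.451% were called as rising. In LSK 9 were tested, Ear1 being filtered out, and edgeR called none, against 0.0793% of 17664 genes. Unadjusted, 3 of the 9 were under 0.05 (Cpa3, Fcer1a and Prss34), against 1392 of the 17664, and DESeq2 called none of them. In CFU-E edgeR called neither of the 2 tested genes, against 1.06% of 10170 genes, with Hdc under 0.05 unadjusted and no call by DESeq2.

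The median log2 fold change of the tested listed genes was 0.27 in GMP, where that of all genes was 0.02, with 7 positive and 3 negative. It was -0.97 in LSK, where that of all genes was 0, with 2 positive (Cpa3 and Hdc) and 7 negative. Some lists of other cell types had more negative medians in the same LSK comparison, none with a called gene: -1.58 for neutrophil genes (9 of 10 negative), -1.41 for monocyte and macrophage genes (6 of 6) and -2.25 for B and plasma cell genes (6 of 6). The other marker lists had less negative medians than the listed genes. Dendritic genes were at -0.76, T and NK cell genes at -0.62, promyelocyte genes at -0.55 and GMP genes at -0.35. Megakaryocyte genes were at -0.32, erythroid genes at -0.17 and stem and multipotent genes at -0.08. The part of these lists in the LSK values, and that of WT 4, in which several listed genes were highest, was not tested beyond leaving WT 4 out. The KO and WT libraries did not overlap for 3 of 10 genes in GMP (Ear1 and Cpa3 higher, Fcer1a lower), against 15.8% of all genes tested. They did not overlap for 2 of 9 in LSK (Fcer1a and Prss34 lower), against 7.89%. In CFU-E they did not overlap for 1 of the 2 tested (Hdc higher), against 11.8%. These counts rest on a few genes whose levels move together.

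**Figure D3:**
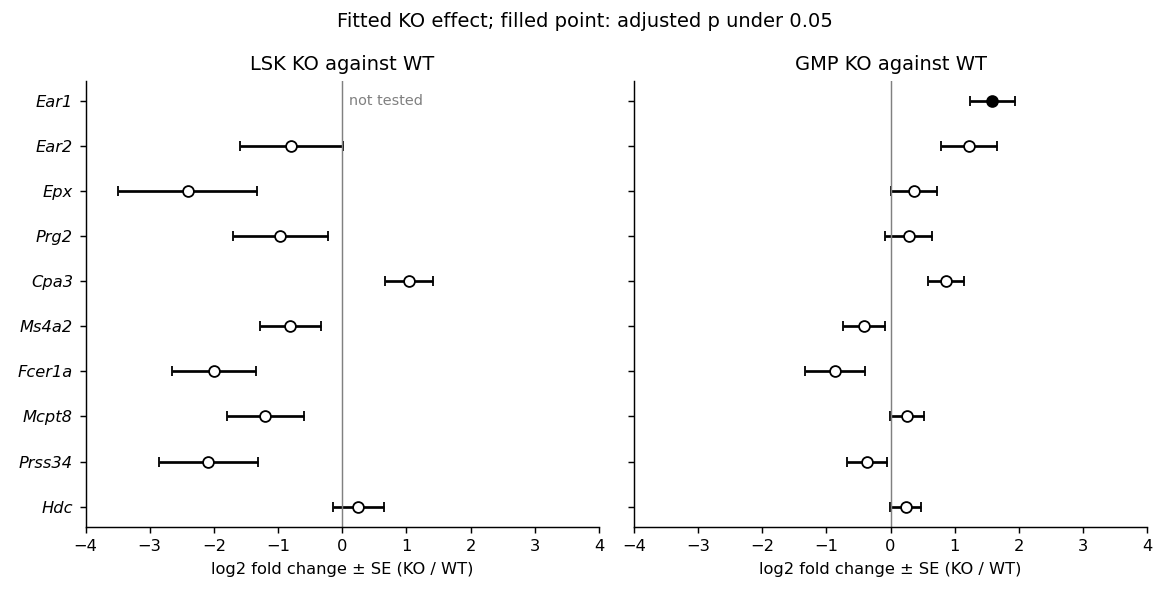
Log2 fold change of KO over WT with its standard error (horizontal axis) for each gene in LSK (left) and GMP (right), from edgeR; a filled point has an adjusted p under 0.05. Only Ear1 in GMP is filled (1.58 ± 0.349), and the standard errors in LSK, up to 1.08 for Epx, are wider than those in GMP.

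Whether the KO effect differed by population was tested with interaction terms. For GMP minus LSK, edgeR called none of the 9 listed genes that passed the filter in both populations (0% of all 16288 genes were called). Ear1 failed the filter in LSK and entered this fit only through GMP, so its value is not read. Epx had the smallest p, with a difference of 2.71 ± 1.06 on the log2 scale (edgeR unadjusted p = 0.0207, adjusted p = 0.425). Leaving out 1 library gave differences from 2.22 (without LSK WT 3, edgeR adjusted p = 0.477) to 3.44 (without GMP WT 3, adjusted p = 0.616). Epx was the 1 listed gene under 0.05 unadjusted, and DESeq2 called none. Kit, depth and population cannot be told apart in this contrast. For GMP minus CFU-E, edgeR called 0.445% of 11006 genes. The contrast is usable only for Prg2 and Hdc, which passed the filter in both populations, and their differences were -0.44 ± 0.744 (adjusted p = 0.804) and -0.94 ± 0.438 (unadjusted p = 0.043, adjusted p = 0.351). Neither was called by edgeR or DESeq2. The other 8 entered this fit only through GMP, so their values are not read.

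Prg2 and Hdc were far lower in WT CFU-E than in WT GMP, libraries made with one kit. Both also passed the filter on CFU-E libraries alone. They were called by edgeR, where 46.9% of 10329 genes were called and 25% were called as lower in CFU-E. The other 8 entered this fit only through GMP, where they are high, so no count or median over the list is read from it and their ratios are a description. Prg2 was 421.3-fold higher in GMP WT than in CFU-E WT by pooled counts (95% exact interval 327.8 to 550.9, counting error only). Hdc was 360.6-fold higher (261.5 to 512.5), Mcpt8 269.4-fold (123.4 to 735.2) and Prss34 165.9-fold (75.9 to 453.3). Cpa3 and Ms4a2 had ratios of 33.7 (18.1 to 71) and 18.9 (10.6 to 37.2). Fcer1a was at least 19.3-fold higher in GMP, against a floor of 3 counts over the CFU-E WT libraries (the exact interval starts at 15.1), and Ear1, Ear2 and Epx, with 1, 1 and 2 CFU-E counts, had ratios of 236.1 (41.9 to 9368.4), 145.3 (25.6 to 5782.2) and 367.7 (101.4 to 3042.8). The edgeR adjusted p was 5.79e-14 for Hdc and 3.5e-12 for Prg2. The summed neutrophil level was at most 570.5 CPM in CFU-E WT.

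How alike the listed genes were was measured on the deviation of each library from its group mean. Over the 21 libraries, Pearson's r of these log2 deviations was 0.82 for Epx with Prg2, 0.73 for Cpa3 with Mcpt8, 0.72 for Mcpt8 with Prss34, and 0.69 both for Ms4a2 with Fcer1a and for Ear2 with Mcpt8. Within the 7 GMP libraries it was 0.99 for Epx with Prg2, 0.97 for Ear1 with Prg2, 0.88 for Ear1 with Ear2 and 0.81 for Mcpt8 with Prss34. Ms4a2 went the other way from the eosinophil genes in GMP, with r of -0.82 against Prg2, and it went with Cpa3 (0.78). Within the 7 LSK libraries r was 0.94 for Ms4a2 with Fcer1a, 0.92 for Cpa3 with Ms4a2 and 0.88 for Mcpt8 with Prss34, all of which share the high library WT 4. For Hdc, r over 21 libraries was between -0.09 and 0.40 against the other 9 genes, but within GMP it was -0.83 with Mcpt8 and -0.80 with Cpa3, and within LSK 0.63 with Prg2. These are descriptions over few libraries that share depth and composition.

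**Figure D4:**
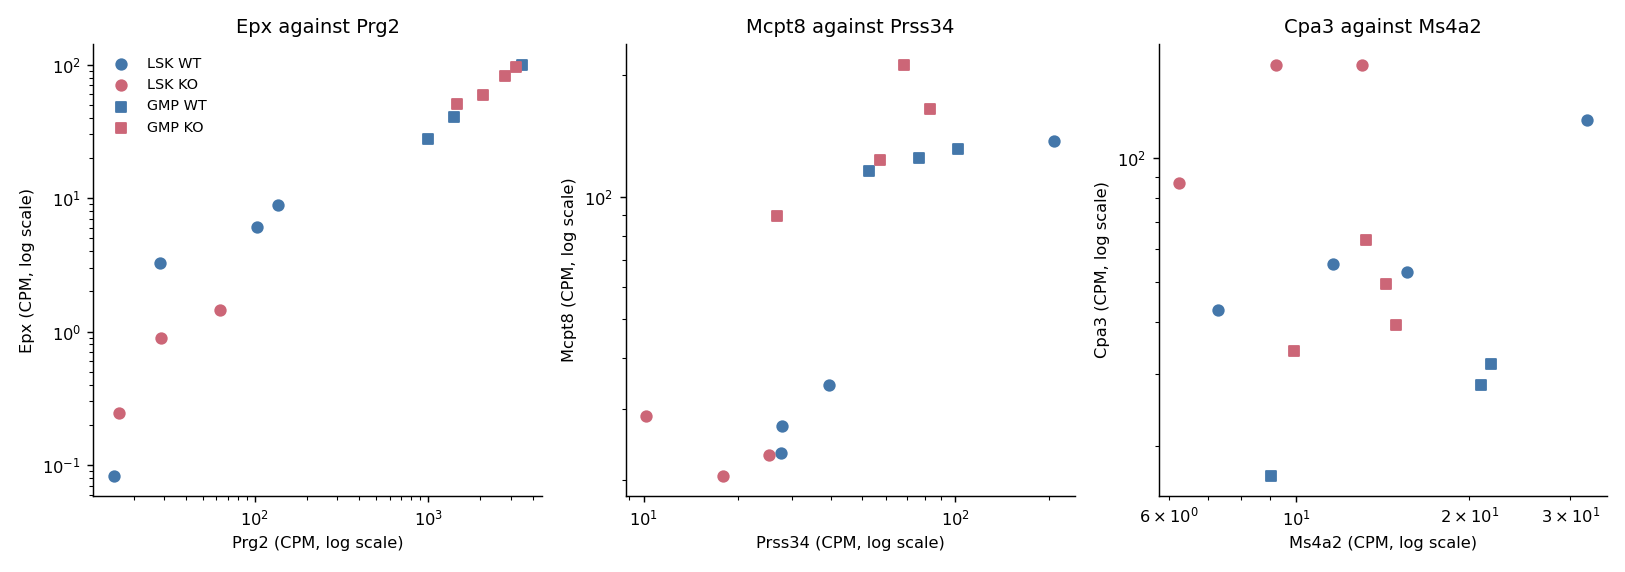
Levels of 3 pairs of genes against each other (CPM, both axes on log scales) in LSK (circles) and GMP (squares) libraries, WT in blue and KO in red. GMP libraries of both genotypes fall on a line for Epx against Prg2, where r of the deviations was 0.99, and LSK WT 4 is the highest LSK library for Mcpt8 and for Prss34 (137 and 208.1 CPM).

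Across all genes with a mean of at least 5 CPM, the gene most like Epx in these deviations was Prg2, and the gene most like Prg2 was Epx (r = 0.82 over 21 libraries). Mcpt8 was the gene most like Cpa3 (r = 0.73). Hdc was most like Gstm1 (0.86), Pgd (0.82) and Tusc1 (0.81). Ear1 was most like Lipt1 (0.88), Rpain (0.84) and Guk1 (0.81), and Ear2 most like Rpl10a-ps1, Ly86 and 2310028O11Rik (0.82, 0.81 and 0.81). For Ms4a2 these were mt-Cytb and Prrg1 (both 0.76) and mt-Nd2 (0.75), for Mcpt8 Igkv9-124 (0.85), Igkv8-18 (0.84) and Gm3788 (0.82), and for Prss34 Nxt1 (0.79), Igkv9-124 (0.74) and S100a1 (0.73). Fcer1a, below this mean, was not searched.

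Wider gene lists of the same lineages were read in the same fits, where the median log2 fold change of all genes was 0.02 in GMP and 0 in LSK and CFU-E. In GMP the list medians were -0.31 for cytokine receptors, -0.13 for transcription factors, -0.19 for IgE receptor signalling, -0.41 for lipid mediators and granule storage, -0.01 for further eosinophil genes and -0.93 for further basophil genes. In LSK they were 0.13, 0.18, 0.21, -0.02, -1.11 and -0.54 in the same order. In CFU-E the first 4 were 0.18, 0.06, 0.33 and 0.21. The eosinophil and basophil medians rest on 4 and 5 tested genes in GMP and on 5 and 11 in LSK. Further mast cell genes had a median of 0.02 over 6 tested in LSK and of 1.15 over 2 in CFU-E. The 1 tested in GMP was at -0.68. Under the reported edgeR settings, 1.45% of all genes tested were called in GMP (0.451% as rising), 0.0793% in LSK and 1.06% in CFU-E. These shares belong beside the calls below made under those settings. Calls below by DESeq2 or with no filter belong beside larger numbers. DESeq2 called 342 genes in LSK, against 14 by edgeR, and 182 in CFU-E, against 108. With no filter edgeR called 601 genes in GMP and 333 in CFU-E. The neutrophil sum and depth that went with genotype in GMP stand beside each GMP value below; their part was not tested.

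Of 11 cytokine receptors, 9 were tested in GMP, and Il18r1, the interleukin-18 receptor chain found on basophils and mast cells, fell. It was at 11.2, 10.3 and 3.44 CPM in GMP WT and at 0, 0.844, 1.45 and 1.01 CPM in KO (log2 fold change -3.08 ± 0.571, edgeR adjusted p = 0.0133). The call ended without WT 1 or WT 2 (adjusted p = 0.0542 and 0.0936). In LSK it was at 3.67 to 4.83 CPM in WT and 1.93 to 2.27 in KO, without overlap and not called by edgeR (-1.08 ± 0.225, adjusted p = 0.194), though DESeq2 called it (adjusted p = 0.00118). Csf2ra, a chain of the GM-CSF receptor, was at -0.71 ± 0.297 in LSK (edgeR adjusted p = 0.612). Il1rl1, the interleukin-33 receptor of mast cells and basophils, was at 3.71 to 3.75 CPM in GMP WT and 5.91 to 9.89 in KO (log2 fold change 1.06 ± 0.367, adjusted p = 0.163). In CFU-E it was at 0.30 ± 0.239 and Il3ra, the interleukin-3 receptor chain, at 0.55 ± 0.368 (adjusted p = 0.757 and 0.695). Il5ra, the receptor chain for the eosinophil growth factor interleukin-5, had a log2 fold change of 0.10 ± 0.507 in GMP (adjusted p = 0.933).

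Of 16 transcription factors present, all were tested in GMP and 1 rose. Ikzf2, which encodes Helios, was at 7.03 to 7.47 CPM in WT and 13.4 to 30.1 in KO (log2 fold change 1.39 ± 0.331, edgeR adjusted p = 0.049), a call that ended under 9 of 14 alternatives, among them leaving out any 1 library other than KO 2. Gata1, Gata2 and Cebpe, which drive these lineages, had GMP log2 fold changes of 0.34 ± 0.388, 0.33 ± 0.377 and -0.04 ± 0.208, none called (adjusted p = 0.654, 0.654 and 0.934). Cebpa, needed for granulocyte progenitors, was at -0.88 ± 0.361 (adjusted p = 0.222; 0.0129 with no filter). Under the reported settings edgeR called no factor in LSK, where Cebpe was at -1.10 ± 0.441 and Id2 at -1.38 ± 0.59 (adjusted p = 0.58 and 0.62), or in CFU-E, where Ikzf2 was at -1.30 ± 0.449 and Stat5a at -0.39 ± 0.17 (adjusted p = 0.272 and 0.456). Without LSK WT 1, Id2 was called in LSK (-1.74, adjusted p = 0.0253).

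Under the reported settings edgeR called none of the genes that signal below the IgE receptor. In GMP, Fcer1g, the shared gamma chain of the receptor, was at 96 to 121.5 CPM in WT and 54.5 to 75.4 in KO (log2 fold change -0.73 ± 0.212, adjusted p = 0.106), and DESeq2 called it (adjusted p = 0.0446). Plcg2 was at -0.80 ± 0.257 (edgeR adjusted p = 0.138). In LSK, Lat, an adaptor of this receptor, was at 28.2 to 41.5 CPM in WT and 53.6 to 59.2 in KO (0.61 ± 0.152, adjusted p = 0.268; DESeq2 called it, adjusted p = 0.0368), and Btk was at 0.51 ± 0.146 (adjusted p = 0.344). In CFU-E, Lat was at 1.23 ± 0.324 and Lyn at 0.51 ± 0.242 (adjusted p = 0.107 and 0.526). Lat was called there with no filter on low counts and with no flow cell term (edgeR adjusted p = 0.015 and 0.0245).

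Among enzymes of lipid mediators and granule storage, edgeR called none under the reported settings. Alox5, which starts leukotriene synthesis, and Ptgs1, a prostaglandin synthase, were at -0.85 ± 0.247 and -0.56 ± 0.209 in GMP (adjusted p = 0.106 and 0.196), and Alox5 was called with no filter (adjusted p = 0.029). In LSK, Alox15, a lipoxygenase of eosinophils, was at 0.36 to 1.6 CPM in WT and at most 0.0593 CPM in KO (log2 fold change -4.42 ± 0.863, adjusted p = 0.166). Hpgds, the synthase of prostaglandin D2, was at 1.30 ± 0.379 there (adjusted p = 0.367). DESeq2 called both (adjusted p = 0.00319 and 0.04). In CFU-E, Ptgs1 was at 1.66 ± 0.382 and Srgn, the granule proteoglycan, at 0.21 ± 0.186 (adjusted p = 0.0622 and 0.79). Ptgs1 was called there by DESeq2 (adjusted p = 0.0281) and by edgeR with no filter, with no flow cell term and without WT 2 (adjusted p = 0.00583, 0.0123 and 0.0435).

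Further eosinophil genes gave a direct comparison for Ear1. Ear6, another ribonuclease of the family, was at 36.1, 10.9 and 46.1 CPM in GMP WT 1, 2 and 3 and at 32.7, 83.2, 48 and 54.1 CPM in KO 1 to 4, with overlap (log2 fold change 0.83 ± 0.387, edgeR adjusted p = 0.275). Prg3, a homolog of Prg2, was at 34.4, 25 and 86.4 CPM in WT and at 35.7, 63, 47.7 and 31.8 CPM in KO, again highest in WT 3 (-0.11 ± 0.36, adjusted p = 0.889). In LSK all 5 tested genes of this list had negative fold changes, with a median of -1.11. None was called by edgeR, 3 were under 0.05 unadjusted, and DESeq2 called Emr1 and Prg3 (adjusted p = 7.03e-05 and 0.025). Prg3 was at 0.876 to 6.96 CPM in LSK WT and at 0.314 to 1.29 in KO (-2.40 ± 0.764, edgeR adjusted p = 0.438). Emr1, the F4/80 antigen of eosinophils and macrophages, was at 1.53 to 3.6 CPM in LSK WT and at 0.0297 to 0.418 in KO (-3.12 ± 0.665, adjusted p = 0.198). The monocyte and macrophage list was lower there too, 6 of 6 tested genes negative and none called, at 204.8 to 403 CPM in WT and 97.4 to 219.7 in KO; its part in the Emr1 values was not tested.

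In GMP, RNA of the mast cell proteases named here was near 0. Over the 7 GMP libraries, Mcpt1, Mcpt2, Mcpt4, Mcpt9, Cma2, Tpsab1, Tpsb2 and Tpsg1 had no count and Cma1 had 3. In LSK, Cma1 had 29 counts over the KO libraries and none in WT, and Tpsab1 had 44 and 48. Of 16 further mast cell genes 6 passed the filter in LSK, 2 in CFU-E and 1 in GMP, and 1 was called. Rab27b, a GTPase of granule release also known from platelets, rose in CFU-E from 4.01, 3.31 and 5.14 CPM in WT to 16.3, 12.3, 8.25 and 15.2 CPM in KO (log2 fold change 1.70 ± 0.346, edgeR adjusted p = 0.0296). This call ended without WT 1, WT 2, WT 3, KO 1 or KO 4 (adjusted p = 0.0768, 0.0782, 0.115, 0.287 and 0.0524). Within the second flow cell, which holds 1 WT library, the value was 1.195. All 7 megakaryocyte markers had positive fold changes in the same comparison, 2 of them called, and their summed level was 117.6 to 261.7 CPM in WT against 396.5 to 920.2 in KO; their part in the Rab27b value was not tested. Cd63, a granule membrane protein, was at -0.68 ± 0.301 in GMP and 0.60 ± 0.163 in CFU-E (adjusted p = 0.249 and 0.122), called in CFU-E with no filter and with no flow cell term (adjusted p = 0.036 and 0.0245). In LSK Gzmb was at 1.56 ± 0.519 and Rab27b at 0.76 ± 0.258 (adjusted p = 0.455 and 0.473).

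Of 12 further basophil genes, 5 were tested in GMP and 1 fell. Ifitm1, an interferon-induced membrane protein placed on this list for its basophil expression, was at 10.3, 8.33 and 11.7 CPM in GMP WT and at 2.23, 1.41, 0.291 and 1.01 CPM in KO (log2 fold change -3.17 ± 0.482, edgeR adjusted p = 0.0027), a call kept under all 13 alternatives. Cd69, an activation marker of basophils and lymphocytes, was at 0.75 ± 0.328 in GMP (adjusted p = 0.245). In LSK, Cyp11a1, a steroid enzyme found in basophils and mast cells, was at 1.24 to 4.01 CPM in WT and 5.17 to 14.1 in KO (2.05 ± 0.482, adjusted p = 0.242). Il6 was at -2.89 ± 0.741 there (adjusted p = 0.286), and both were called by DESeq2 (adjusted p = 0.00202 and 0.0134). In CFU-E, Csrp3, the 1 gene tested, was at -0.17 ± 0.412 (adjusted p = 0.943).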

How the data were processed

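RNA was measured in 21 libraries of sorted mouse marrow cells. The deposited table holds raw read counts for 30733 genes, 82 of them with no count. STAR 2.4, HTSeq 0.6.1, DESeq2 and the build mm9 are named in the submitters' processing notes. Neither annotation nor strand setting is stated there, so overlapping and antisense genes are uncertain.

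Each genotype comparison was fitted in edgeR 4.0.16 (limma 3.58.1, R 4.3.3) with filterByExpr (minimum count 10, total 15), TMM, quasi-likelihood F tests and Benjamini-Hochberg adjustment over all genes tested (threshold 0.05); SE is the log2 fold change over root F. Fits with CFU-E carried a flow cell term, from the libraries' descriptions: GMP, CFU-E KO 1, WT 1 and WT 2 against the rest of CFU-E. Replicates all differed beyond sampling noise (lowest chi-square per degree of freedom 4.03).

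Listed genes, wider lists and markers were chosen with earlier results of these data known. All 10 listed genes are named, and of each wider list the 2 genes with the smallest p per KO comparison and any called. Il5ra, Gata1, Gata2, GMP Cebpe, the mast cell proteases, count-share pairs, motifs and printed sequences were picked after their values were seen. Spi1, Syk and some Ear genes were not analysed here. Shares were compared by exact permutation (SciPy 1.17.1, Python 3.11.15). Sequences came from RefSeq promoter windows (GRCm38.p6, 9 of 10 matched) and GENCODE transcripts, aligned with Biopython 1.88. Alternatives were DESeq2 1.42.0, no filter, a filter of 5 CPM, a replicate block, flow cell settings, thinning and leaving out libraries. The scripts were tested on simulated data.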

Additional observations from a re-analysis of the deposited data

Results flagged for a closer look

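Of 21 groups of 4 libraries checked over the listed genes, 3 held a library far from the other 3, with a gap to its nearest neighbour, divided by the group's range, above Dixon's critical value for 4. All 3 were LSK WT 4. Cpa3 was at 123.3 CPM there, against 42.7 to 55.4 CPM in LSK WT 1 to 3. Mcpt8 was at 137 CPM, against 23.3 to 34.3 CPM. Prss34 was at 208.1 CPM, against 27.6 to 39.4 CPM. Chance flags about 1 in 20 such groups, and the 3 genes are not independent, since they share the library.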

How the results depend on the processing

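The number of listed genes called in GMP KO against WT was 1 as reported, 2 with no filter on low counts (Ear1 and Ear2), 0 after thinning to the shallowest library and 0 to 1 when each library was left out. The log2 fold change of Ear1 stayed positive throughout, between 1.22 and 2.13 (adjusted p from 6.8e-06 to 0.276 by edgeR or DESeq2). No alternative changed the count of 0 in LSK, in CFU-E or in either difference between populations. In CFU-E and for GMP minus CFU-E this can be read only for Prg2 and Hdc. The other listed genes had too few CFU-E counts for a count of 0 to say much about them. Ear1 is likewise not read for GMP minus LSK. In WT CFU-E against WT GMP, Prg2 and Hdc kept their edgeR calls under all 12 alternatives, and no count over the list is read there. Of 283 alternative values of the listed genes' KO fold changes, 272 kept their direction and their side of the threshold, 5 reversed, 5 lost the call of Ear1 and 1 gained that of Ear2.

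The replicate numbers did not pair the libraries: correlations of deviations between libraries of the same number ran from -0.18 to 0.26. With the replicate block, GMP calls over all genes were 325 in place of 145, the log2 fold change of Ear1 was 1.63 (edgeR adjusted p = 1.68e-04), Rab27b in CFU-E lost its call (1.375, adjusted p = 0.467), Epx for GMP minus LSK was 2.17 (adjusted p = 0.79), and Ear2 in LSK (0.0163), Mcpt8 in GMP (-0.0055) and, for GMP minus LSK, Ms4a2 (-0.1339) and Hdc (0.0856) reversed. Prg3 in GMP reversed with the block (0.1474), without KO 1 and KO 4 (0.2117) and when single libraries were left out (-0.4311 to 0.5883). Without LSK WT 2 and WT 4, Ear2 in LSK reversed (0.535). Leaving out each library gave sign changes also for Hdc in LSK (-0.3473 to 0.5922), Prg2 in GMP (-0.041 to 0.9748), Csrp3 and Srgn in CFU-E (-0.3489 to 0.0255 and -0.06 to 0.4559), Prg2 for GMP minus CFU-E (-0.7641 to 0.2573) and, for GMP minus LSK, Cpa3 (-0.6228 to 0.041), Hdc (-0.327 to 0.615) and Ms4a2 (-0.144 to 0.7282). Srgn in CFU-E also reversed within the first flow cell alone (-0.0722). None of the values that changed sign was called, and the cause of the changes was not tested.

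Calls over all genes moved more than the listed genes did. In LSK they were 14 by edgeR, 342 by DESeq2, 38 with no filter, 0 with the block and 0 to 123 when libraries were left out. In GMP they were 145, 300 by DESeq2, 601 with no filter and 29 after thinning. In CFU-E they were 108, 182 by DESeq2, 333 with no filter, 31 with the block and 234 with no flow cell term. For GMP minus CFU-E they were 49, 134 by DESeq2, 254 with no filter and 81 with no flow cell term, and for GMP minus LSK 0, 62 by DESeq2 and 12 with no filter. Leaving out libraries gave 38 to 211 in GMP, 22 to 143 in CFU-E, 2 (without CFU-E WT 3) to 72 for GMP minus CFU-E and 0 to 8 for GMP minus LSK. Stag2 in LSK lost its call when WT 3, WT 4 or any 1 KO library was left out (adjusted p from 0.0657 to 0.151), without both WT 2 and WT 4 (0.0873) and with the replicate block (0.22). In CFU-E it lost it without WT 3 (0.703), with the block (0.0804) and within the first flow cell (0.0518), which holds 1 KO library. In CFU-E 1 count was worth 0.187 to 0.271 CPM and 8 of the listed genes had at most 12 counts per genotype, which limits what could be detected there.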
